A study of Mus musculus with 6 samples.

Results

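The genes described here encode the contents of Paneth cell granules: the alpha-defensins (Defa rows, also called cryptdins in the mouse) and 9 other granule or Paneth-associated genes, Lyz1, Mmp7, Ang4, Itln1, Pla2g2a, Mptx1, Mptx2, Clps and Habp2. They were chosen by symbol, as every row that starts with Defa plus those 9 genes, and gave 36 of the 24930 rows of the table, 27 of them Defa rows. The data came from crypt epithelium of mice, the cell layer that lines the intestinal glands. The mutant crypts (β-catenin GOF/+, 3 libraries) carried 1 gain-of-function allele of β-catenin induced 4 days before, and control crypts gave the other 3 libraries. The labels do not give the genotype of the controls, the strain, the driver of the induction, the gut segment, the age, or which animals the libraries came from. The p-values below therefore rest on differences among libraries that may be partly technical. Values are normalized units made by the authors. The absolute read depth is unknown.

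Paneth cells sit between the stem cells at the base of small intestinal crypts and release granules rich in antimicrobial proteins into the lumen. Mouse alpha-defensins are stored as inactive proforms that the metalloproteinase matrilysin, encoded by Mmp7, cleaves into active peptides. WNT signals, which act through β-catenin and TCF transcription factors, are known to drive the maturation of Paneth cells, and TCF sites in mouse alpha-defensin promoters have been studied as WNT-responsive elements.

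Promoters are shown first as sequence background, and no link between them and the values described below was tested. The RefSeq table for GRCm38.p6 held a promoter, 250 bases before to 50 after the start, for 19 of the 36 genes, 12 of them Defa rows. The submitters' processing notes name another build, mm9, so the coordinates below belong to the RefSeq table only. Capitals mark the TCF core, searched as CTTTGAT on both strands. The promoter of Defa23 is identical in letters to that of Defa31, Defa2 to Defa20, and Defa36 to Defa37, while Mmp7 and Lyz1 stand for the other granule genes.
Defa23, chr8:21054790-21055089, plus strand: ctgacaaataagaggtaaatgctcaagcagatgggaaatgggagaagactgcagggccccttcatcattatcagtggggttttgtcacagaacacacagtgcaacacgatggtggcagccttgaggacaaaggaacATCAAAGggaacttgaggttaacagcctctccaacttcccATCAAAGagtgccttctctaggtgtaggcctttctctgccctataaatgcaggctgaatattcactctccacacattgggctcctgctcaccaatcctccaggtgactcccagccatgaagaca
Defa2, chr8:21378267-21378566, plus strand: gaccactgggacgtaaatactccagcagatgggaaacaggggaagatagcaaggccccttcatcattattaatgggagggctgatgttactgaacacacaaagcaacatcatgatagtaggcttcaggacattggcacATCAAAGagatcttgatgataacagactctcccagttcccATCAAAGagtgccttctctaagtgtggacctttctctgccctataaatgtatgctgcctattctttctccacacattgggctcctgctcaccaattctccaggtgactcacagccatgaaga
Defa36, chr8:21427178-21427477, plus strand: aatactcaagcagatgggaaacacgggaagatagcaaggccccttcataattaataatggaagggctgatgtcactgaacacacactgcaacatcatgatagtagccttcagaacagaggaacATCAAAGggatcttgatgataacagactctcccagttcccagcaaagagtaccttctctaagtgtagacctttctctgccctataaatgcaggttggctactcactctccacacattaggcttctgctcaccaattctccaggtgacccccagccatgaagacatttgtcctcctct
Defa30, chr8:21134400-21134699, plus strand: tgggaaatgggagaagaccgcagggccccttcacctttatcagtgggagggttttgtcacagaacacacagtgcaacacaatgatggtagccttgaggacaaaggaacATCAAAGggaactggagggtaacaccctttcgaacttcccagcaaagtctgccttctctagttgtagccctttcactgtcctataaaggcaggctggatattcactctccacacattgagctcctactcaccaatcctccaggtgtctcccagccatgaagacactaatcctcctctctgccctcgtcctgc
Mmp7, chr9:7691840-7692139, plus strand: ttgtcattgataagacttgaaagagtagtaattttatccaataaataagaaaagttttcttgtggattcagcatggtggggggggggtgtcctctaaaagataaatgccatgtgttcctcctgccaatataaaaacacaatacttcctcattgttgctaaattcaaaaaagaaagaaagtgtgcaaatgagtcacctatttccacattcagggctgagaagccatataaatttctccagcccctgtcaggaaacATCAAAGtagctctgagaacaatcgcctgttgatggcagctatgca
Lyz1, chr10:117292819-117293118, minus strand: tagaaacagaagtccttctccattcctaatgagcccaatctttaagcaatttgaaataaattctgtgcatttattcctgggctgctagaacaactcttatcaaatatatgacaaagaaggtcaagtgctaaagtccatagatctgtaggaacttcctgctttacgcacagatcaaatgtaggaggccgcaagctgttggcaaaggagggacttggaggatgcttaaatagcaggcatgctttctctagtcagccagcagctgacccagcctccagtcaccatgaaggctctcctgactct

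All 12 Defa promoters lie on chromosome 8. Each of them held the core at least once, and 8 of the 12 held 2 or more copies, whereas 4.29% of 27025 genes with a promoter in the table held it at all and 0.122% held 2 or more. In Defa2, both copies read in reverse, at 112 and 72 bases before the start, and in Defa23 they lay at 114 and 74 bases before it. Defa36 and Defa30 had 1 copy each, at 127 and 142 bases before the start. The TATA box, searched as TATAAA on both strands, was in 11 of the 12 Defa promoters and in 15.7% of all genes. The 12 promoters fall into 8 distinct sequences from 1 gene family, so they are not separate observations. Of the 8, that of Defa32 repeats the letters of Defa2 in a shifted window, with its copies at 110 and 70 bases before the start. Among the 7 other granule genes with a promoter, Mmp7 alone held the core, 4 bases past the start printed here, and Lyz1 held none within this window. A match is a description of letters and not a measured binding site.

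The deposited values also had to be read with the likeness of the paralogs in mind. Of 31-base words in the GENCODE vM21 transcripts, a median of 8.23% per Defa transcript occurred in no other gene, over the 25 Defa rows that had a transcript there. Defa2, Defa20, Defa23, Defa31, Defa32, Defa33 and Defa37 had no such word. The split of reads between these rows and their closest relatives is therefore uncertain. Defa24 was the highest alpha-defensin row and had 42.9% words of its own. Among the other granule genes the share was 65.8% in Lyz1, which resembles Lyz2, and 100% in Mmp7, Pla2g2a, Clps and Habp2. The annotation that the authors used is not given in the sources used here. Sums over near-identical rows are therefore given beside single rows.

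Alpha-defensin RNA made up a large and very variable part of every library, smaller on average in mutant crypts but with overlapping groups. The 27 Defa rows summed to 108837, 351304 and 73621 units in mutant replicates 1, 2 and 3, against 633325, 305874 and 187421 units in control replicates 1, 2 and 3. As a share of all units that was 16.9, 37.4 and 11.1% in mutant crypts, against 49.9, 34.5 and 24.8% in control crypts. Mutant replicate 2 lay above control replicates 2 and 3, so the groups overlapped, while mutant replicates 1 and 3 lay below every control library. The mean share was 21.8 ± 13.8% in mutant and 36.4 ± 12.7% in control libraries (SD, n = 3 each), a difference of -14.6 percentage points that is close to the spread within each group. It was -7.86 points without control replicate 1, -22.4 without mutant replicate 2 and -9.28 without mutant replicate 3. In RNA from whole crypts, fewer Paneth cells and less of these RNAs per Paneth cell cannot be told apart.

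The deposited values were already nearly level between libraries by the median of ratios to each gene's geometric mean, with factors of 0.9874 to 1.008. Such scaling tends to bring the units outside a few very abundant genes close together, so their closeness is not a separate result. Units outside the 36 genes were 522936, 560335 and 580865 in mutant crypts, against 540118, 551746 and 547874 in control crypts. On this scale the library totals followed the granule genes, with 645225 to 940163 units in mutant and 756929 to 1268771 in control libraries. All 36 genes together took 19.0, 40.4 and 12.5% of units in mutant libraries and 57.4, 37.7 and 27.6% in control libraries. The other 9 genes added 2.09, 3.03 and 1.42% in mutant and 7.51, 3.24 and 2.86% in control libraries. Of the 20 rows with the highest mean in the whole table, 15 were among the 36. Gm7849 and Gm14851, which RefSeq lists as alpha-defensins, were also among the 20 but not among the 36. Levels of Xist and Y-linked genes marked mutant replicate 1 and control replicates 1 and 2 as male and the other 3 libraries as female. Between male libraries the Defa share was 16.9% in the mutant, against 49.9 and 34.5% in controls, and between female libraries it was 37.4 and 11.1% in mutants, against 24.8% in the control.

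**Figure D1:**
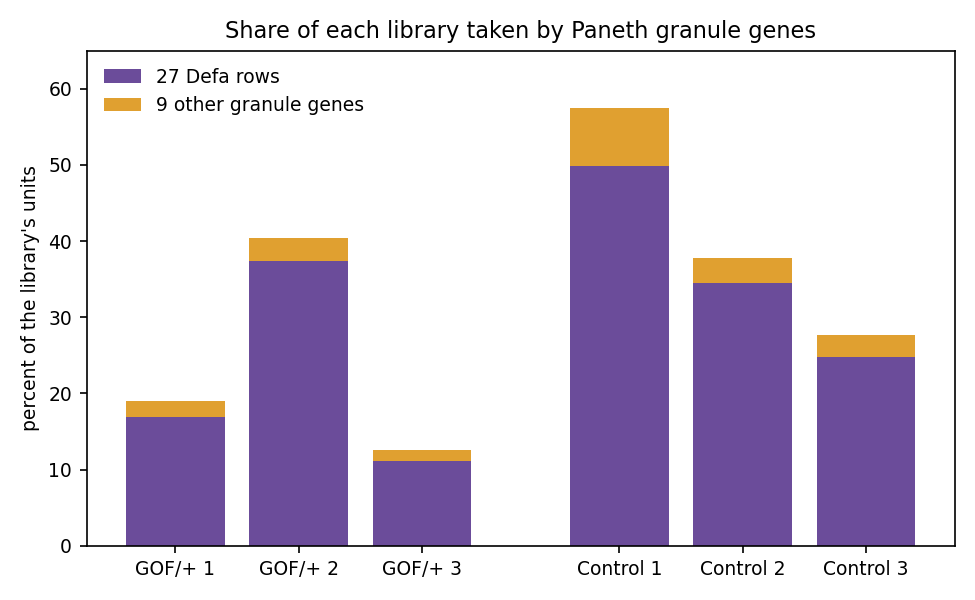
Share of each library's units (vertical axis, percent) taken by the 27 Defa rows (purple) and the 9 other granule genes (orange), 1 bar per library with the mutant libraries on the left. Mutant replicates 1 and 3, at 16.9 and 11.1% for the Defa rows, lie below all controls, and mutant replicate 2, at 37.4%, lies between control replicates 1 and 2.

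No single granule gene passed the test between mutant and control crypts. Of the 36 rows, 34 had a mean of at least 1 unit and were tested with limma on log2(value + 1) within a fit of 11837 genes, and 0 passed at an adjusted p under 0.05, where 0.0169% of all genes tested passed as lower and 0% as higher. All 34 had a log2 difference below 0, as did 52.7% of all genes. The median log2 difference was -1.07 over the 34 rows and -0.02 over all genes tested. A log2 difference below -1 was seen for 20 of the 34 rows, against 1.08% of all genes, and an unadjusted p under 0.05 for 3 rows, Ang4, Clps and Defa26, against 3.59% of all genes in that direction. No row had such a p in the other direction, where 4.72% of all genes did. The adjusted p in limma ranged from 0.589 to 0.894. No row had every mutant value below every control value, where 8.37% of all genes did, or every mutant value above every control value, where 8.34% did. The rows share reads and cells and vary together, so their common direction is not 34 observations. Their median was -0.63 without control replicate 1, where Defa32, Defa34 and Mmp7 turned slightly positive, -1.63 without mutant replicate 2 and -1.78 with libraries weighted by their variability (array weights).

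The highest library, and mostly the lowest, stayed the same from gene to gene, while the order between them varied. Control replicate 1 was the highest library for 33 of the 34 rows, where 12.3% of all genes had their highest value there. The exception was Defa33, which was highest in mutant replicate 2. Mutant replicate 3 was the lowest for 27 rows, where 36.4% of all genes had their lowest value there. Both held for 26 rows and for 5.99% of all genes. Mutant replicate 2 lay above control replicate 3 for 32 of the 34 rows, where 49.8% of all genes did. It lay above control replicate 2 for 20 rows, a count for which no share over all genes was taken. The ratio of control replicate 1 to mutant replicate 3 had a median of 8.15, and over Defa rows with a mean of at least 5 units it ran from 4.28 in Defa34 to 14.1 in Defa26.

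**Figure D2:**
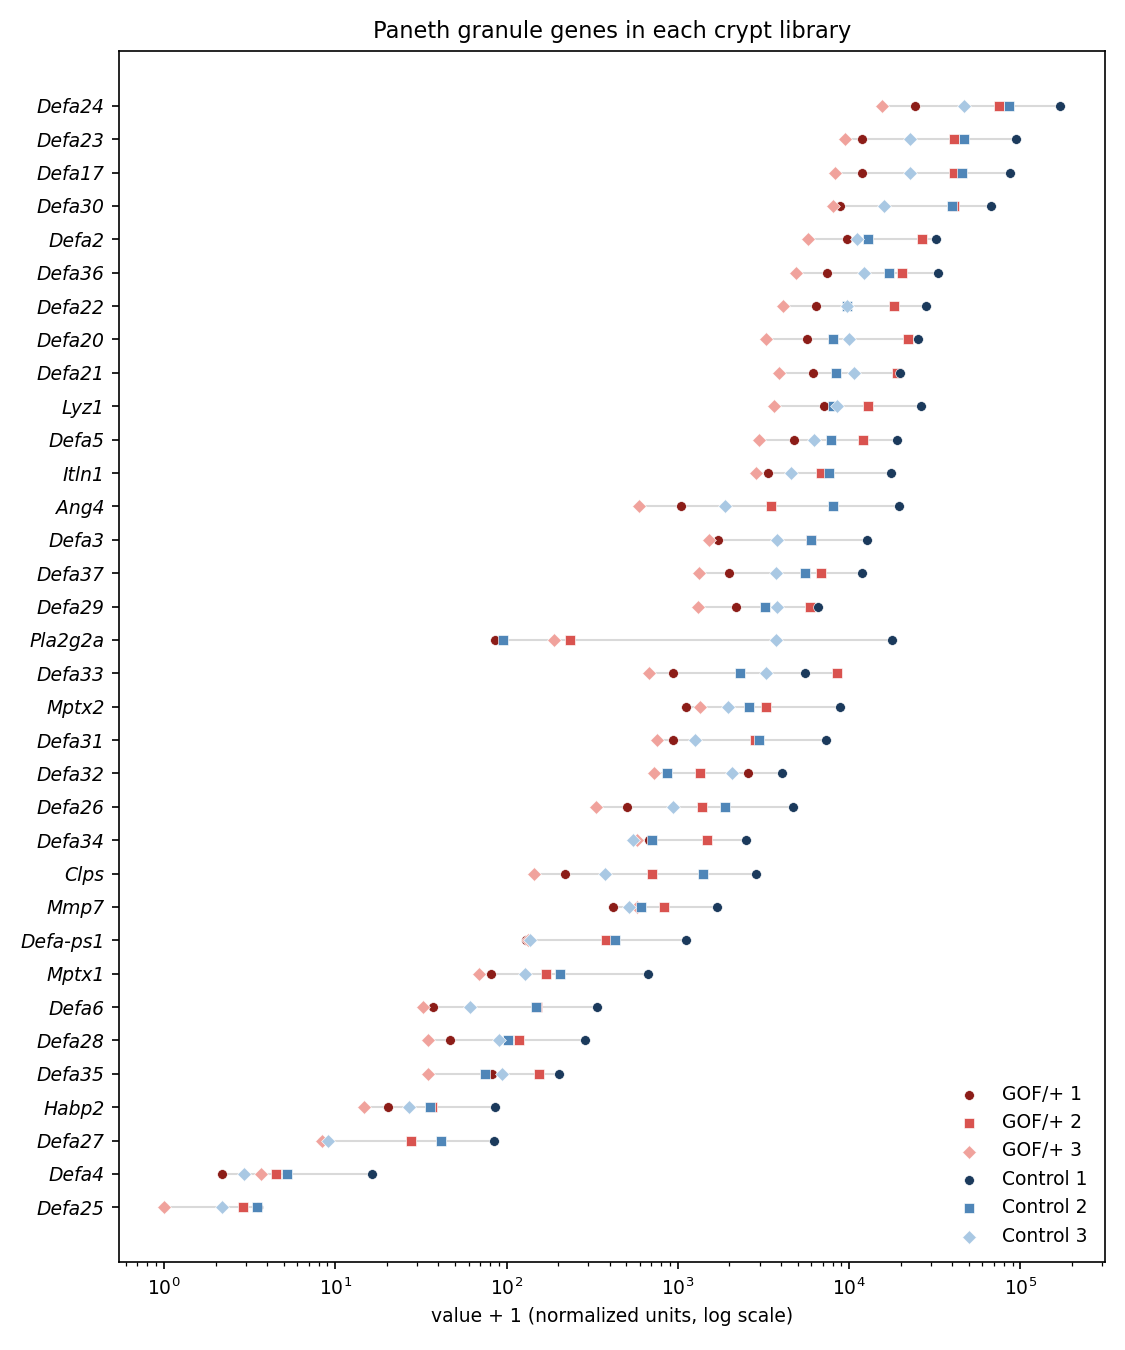
Values of the 34 tested rows in each library (horizontal axis, value + 1 in normalized units, log scale), sorted by mean, with mutant libraries in red and control libraries in blue. Control replicate 1 (dark blue circle) is rightmost in 33 rows and mutant replicate 3 (light red diamond) leftmost in 27.

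Among the alpha-defensins, the antimicrobial peptides themselves, Defa24 was the most abundant. It had 24350, 74818 and 15523 units in mutant replicates 1 to 3, against 170009, 86080 and 46689 units in control replicates 1 to 3. Mutant replicate 2 lay above control replicate 3, and the log2 difference of -1.53 ± 0.86 (SE) did not pass (adjusted p = 0.590 in limma). Defa23 and Defa17, its relatives in the same high range, followed the same order of libraries. Defa23 had 11883, 40823 and 9514 units in mutant and 94191, 46698 and 22542 units in control libraries. Defa17 had 11932, 41093 and 8234 units in mutant and 86854, 45343 and 22618 units in control libraries. Their log2 differences of -1.48 ± 0.82 and -1.49 ± 0.82 did not pass (adjusted p = 0.590 each in limma). In Defa30, mutant replicate 2 came above control replicate 2: it had 8813, 41166 and 7993 units in mutant and 67715, 39593 and 15957 units in control libraries.

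A second set of abundant paralogs showed smaller differences, and mutant replicate 2 reached further into the control range. Defa2 had 9723, 26494 and 5741 units in mutant and 32231, 12938 and 11125 units in control libraries. Defa20 had 5679, 22060 and 3265 units in mutant and 25282, 7993 and 9935 units in control libraries. Defa22 had 6371, 18371 and 4124 units in mutant and 28085, 9668 and 9681 units in control libraries. Defa36 had 7443, 20406 and 4902 units in mutant and 32841, 17082 and 12208 units in control libraries. In all 4 rows mutant replicate 2 stood above control replicates 2 and 3. The log2 differences were -0.55 ± 0.72 for Defa2, -0.76 ± 0.81 for Defa20, -0.81 ± 0.71 for Defa22 and -1.07 ± 0.67 for Defa36, none of which passed (adjusted p from 0.601 to 0.767 in limma). Single libraries moved these values by more than 1.5 times. Without control replicate 1 they were -0.0745 for Defa2, -0.26 for Defa20, -0.30 for Defa22 and -0.67 for Defa36. Without mutant replicate 3 they were -0.055, -0.17, -0.35 and -0.62 for the same genes, and without mutant replicate 2 they were -1.16, -1.55, -1.43 and -1.65.

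The ends of the range were Defa26 and Defa34. Defa26, with the most negative log2 difference of the Defa rows at -1.72 ± 0.72 (adjusted p = 0.589 in limma), had 504, 1386 and 332 units in mutant and 4695, 1888 and 934 units in control libraries. Defa34, with the least negative at -0.24 ± 0.63 (adjusted p = 0.894 in limma), had 680, 1470 and 580 units in mutant and 2483, 702 and 543 units in control libraries. Its lowest value was in control replicate 3, and its difference turned positive when values were scaled to the library total (log2 difference of 0.12) or without mutant replicate 3 (0.025) or control replicate 1 (0.43). Defa32 had 2558, 1348 and 725 units in mutant and 4027, 865 and 2063 units in control libraries, a log2 difference of -0.51 ± 0.67 (adjusted p = 0.767 in limma). Mutant replicate 1 was its second highest library, unlike in Defa34, and the row has no 31-base word of its own. Low rows were Defa25, at 0, 1.88 and 0 units in mutant and 2.54, 2.47 and 1.19 units in control libraries, and Defa4, at 1.18, 3.49 and 2.67 in mutant and 15.3, 4.21 and 1.93 in control libraries. The pseudogene row Defa-ps1 had 129, 377 and 133 units in mutant and 1113, 430 and 136 units in control libraries. Defa-ps12 and Defa-ps13, which RefSeq also lists under beta-defensin pseudogene synonyms, were at 0 in every library.

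The make-up of the alpha-defensin sum, a measure that does not depend on how much of it a library held, also varied between libraries. Defa24 made up 22.4, 21.3 and 21.1% of the summed Defa units in mutant libraries, against 26.8, 28.1 and 24.9% in control libraries. Defa17 made up 10.96, 11.7 and 11.2% in mutant and 13.7, 14.8 and 12.1% in control libraries, and Defa26 0.463, 0.395 and 0.451% in mutant and 0.741, 0.617 and 0.498% in control libraries. In these 3 rows every mutant share was below every control share. The reverse was seen in 4 rows, Defa2, Defa22, Defa5 and Defa34. Defa2 made up 8.93, 7.54 and 7.80% in mutant and 5.09, 4.23 and 5.94% in control libraries. Defa22 made up 5.85, 5.23 and 5.601% in mutant and 4.43, 3.16 and 5.17% in control libraries. The 3 and 4 rows are 12% and 16% of the 25 rows above 0, which is no comparison with other genes. A share of the Defa sum has no counterpart over all genes. By value, every mutant library was below every control in 8.37% of all genes tested and above in 8.34%. Shares add up to a fixed total, so a lower share of Defa24 goes with higher shares elsewhere. With 3 libraries in each group an exact permutation test cannot give a two-sided p under 0.1, and none was run.

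Joining rows whose transcripts align at 98% identity or more kept the 3 groups that hold the rows lower in mutants apart, but of the groups that hold the 4 rows higher in mutants it kept apart only that of Defa2, by a narrow margin. Defa24 with Defa30 made up 30.5, 33.0 and 31.9% of the sum in mutant libraries, against 37.5, 41.1 and 33.4% in control libraries. The margin was narrow here too, between 33.0% in mutant replicate 2 and 33.4% in control replicate 3. Defa17 with Defa3 made up 12.5, 13.4 and 13.3% in mutant and 15.7, 16.8 and 14.1% in control libraries. The group of Defa2, Defa20, Defa32 and Defa33 made up 17.4, 16.6 and 14.1% in mutant and 10.6, 7.88 and 14.1% in control libraries. Defa21 with Defa22 made up 11.5, 10.6 and 10.9% in mutant and 7.55, 5.92 and 10.8% in control libraries, and so overlapped. The group of Defa5, Defa34, Defa35, Defa36 and Defa37 overlapped too, at 13.7, 11.7 and 13.3% in mutant and 10.5, 10.2 and 12.2% in control libraries. Of the 14 joined groups above 0, 4 did not overlap between mutant and control libraries, 3 of them lower in mutants.

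**Figure D3:**
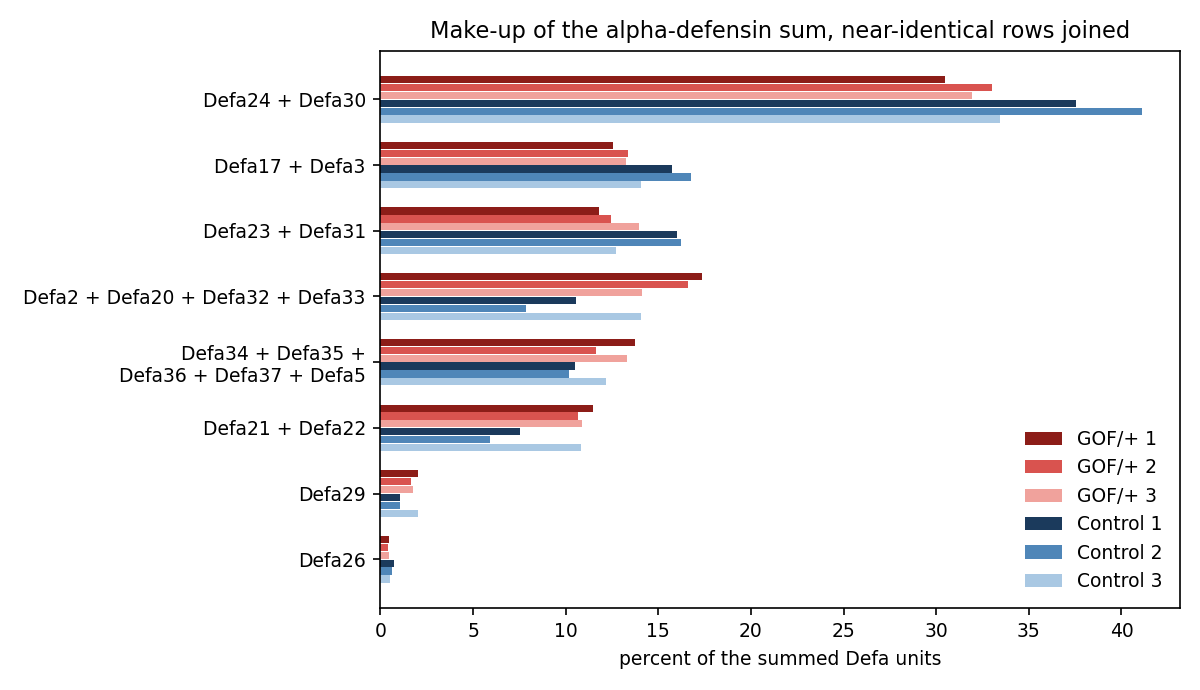
Share of the summed Defa units (horizontal axis, percent) taken by the 8 largest groups of near-identical rows, 1 bar per library with mutant libraries in red above control libraries in blue. Control replicate 3 (light blue) lies next to the mutant bars in several groups, for example at 10.8% for Defa21 with Defa22, where mutant libraries have 10.6 to 11.5% and the other controls 5.92 and 7.55%.

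In this make-up, control replicate 3 stood nearer to the mutant libraries than to the other controls. Its share was closer to the mean of the mutant libraries than to the mean of control replicates 1 and 2 in 18 of 25 rows and in 7 of the 10 highest. The same count was 5 of 25 for control replicate 1 and 4 of 25 for control replicate 2. For mutant replicates 1, 2 and 3 the count of rows closer to the controls was 5, 14 and 13 of 25, and 1, 3 and 3 of the 10 highest. By its Xist and Y-linked levels control replicate 3 was the only female control, while mutant replicates 2 and 3 were female, and the part of sex in this likeness was not tested.

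All 9 other granule genes were highest in control replicate 1, as most Defa rows were, but the order of the other libraries differed between them. Lyz1, the Paneth cell lysozyme that cleaves bacterial cell walls, had 7134, 12900 and 3632 units in mutant and 26267, 8017 and 8468 units in control libraries. Mutant replicate 2 was second only to control replicate 1, and the log2 difference was -0.81 ± 0.67 (adjusted p = 0.654 in limma). Itln1, a lectin that binds microbial sugars, had 3346, 6861 and 2847 units in mutant and 17448, 7673 and 4566 units in control libraries, a log2 difference of -1.07 ± 0.60 (adjusted p = 0.590 in limma). Mmp7, the protease that activates the defensins, had the smallest difference of the 9, at 419, 826 and 575 units in mutant and 1697, 612 and 519 units in control libraries. Its lowest library was mutant replicate 1, and mutant replicate 3 lay above control replicate 3. Its log2 difference of -0.48 ± 0.49 did not pass (adjusted p = 0.704 in limma) and was 0.050 without control replicate 1.

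Ang4, an antimicrobial ribonuclease of the angiogenin family, had 1039, 3509 and 594 units in mutant and 19667, 8093 and 1876 units in control libraries. Only mutant replicate 2 exceeded a control library, control replicate 3, and the log2 difference was -2.37 ± 0.98 (adjusted p = 0.589 in limma). Clps, which encodes colipase, a cofactor of lipases, had 217, 706 and 144 units in mutant and 2841, 1401 and 375 units in control libraries, with the same order and a log2 difference of -2.02 ± 0.85 (adjusted p = 0.589 in limma). The pentraxin genes Mptx1 and Mptx2, of which Mptx2 is a known Paneth cell marker, had log2 differences of -1.40 ± 0.63 and -1.07 ± 0.67 (adjusted p = 0.589 and 0.601 in limma). Mptx1 had 80.4, 169 and 68.3 units in mutant and 666, 205 and 127 units in control libraries. Mptx2 had 1113, 3284 and 1341 units in mutant and 8895, 2614 and 1953 units in control libraries. Habp2, a serine protease that binds hyaluronan, was low, at 19.2, 35.8 and 13.6 units in mutant and 84.5, 34.8 and 26.0 units in control libraries.

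Pla2g2a had a library order of its own. This gene encodes a secreted phospholipase that kills Gram-positive bacteria, lies at the Mom1 locus that modifies intestinal tumour number in mice, and is inactive in C57BL/6 mice. RefSeq lists it as a transcribed pseudogene in that reference strain. It had 84.1, 234 and 187 units in mutant replicates 1 to 3, against 17763, 94.6 and 3725 units in control replicates 1 to 3. Control replicates 1 and 3 were thus high and control replicate 2 was within the range of the mutants, so the log2 difference of -3.57 ± 1.74 (adjusted p = 0.589 in limma) rested on control replicates 1 and 3. The labels give no strain, and the part of strain in these values was not tested.

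Relative to the alpha-defensins of the same library, the granule genes did not all keep a fixed ratio. Lyz1 had 65.6, 36.7 and 49.3 units per 1000 Defa units in mutant and 41.5, 26.2 and 45.2 in control libraries, and Itln1 had 30.7, 19.5 and 38.7 in mutant and 27.6, 25.1 and 24.4 in control libraries, so both overlapped. Mmp7 had 3.85, 2.35 and 7.80 in mutant and 2.68, 2.00 and 2.77 in control libraries, with mutant replicate 3 far above the rest. Clps had 1.99, 2.01 and 1.96 in mutant libraries and 2.00 in control replicate 3, but 4.49 and 4.58 in control replicates 1 and 2. Ang4 likewise had 9.55, 9.99 and 8.07 in mutant libraries and 10.01 in control replicate 3, but 31.1 and 26.5 in control replicates 1 and 2. Control replicate 3 thus lay with the mutant libraries for Clps and Ang4. It lay with or near the other controls for Itln1 and Mmp7. Pla2g2a had 0.773, 0.667 and 2.54 in mutant and 28.1, 0.309 and 19.9 in control libraries, so control replicate 3 stood far from the mutant libraries there. Pnliprp2, a pancreatic lipase-related gene outside the 36 that was chosen here after its values were seen, had 1.07, 0.821 and 1.33 in mutant and 3.46, 2.44 and 0.876 in control libraries.

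**Figure D4:**
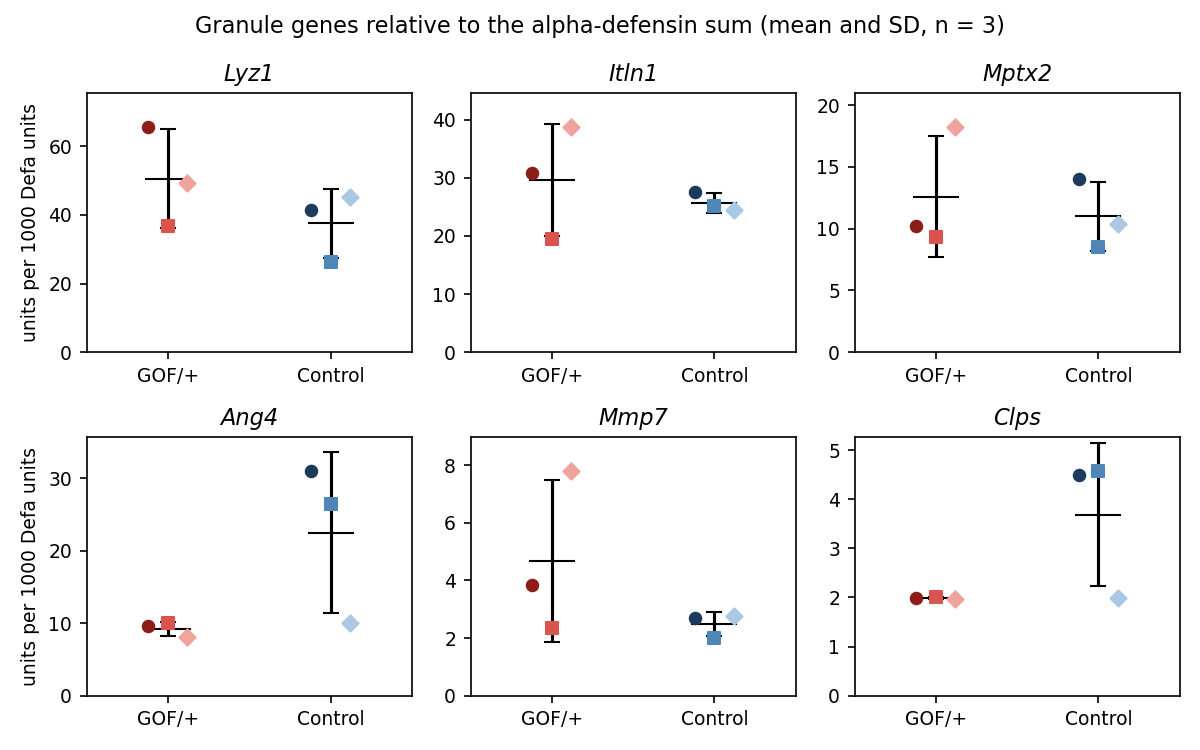
Units of 6 granule genes per 1000 summed Defa units (vertical axis) in mutant libraries on the left and control libraries on the right; circles, squares and diamonds are replicates 1, 2 and 3, and bars are the mean and SD of 3 libraries. For Clps, control replicate 3 at 2.00 lies with the mutant libraries at 1.96 to 2.01, below control replicates 1 and 2 at 4.49 and 4.58.

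The tested genes of a wider list around Paneth cells were split evenly in direction. That list also holds genes that other gut cells make, so its split does not describe Paneth cells alone. Of 43 genes listed for the lineage, its signals and its secretory machinery, 36 were tested, 18 were higher and 18 lower in mutant libraries, 0 passed, and the median log2 difference was 0.02. The 6 with the smallest p included the lectin genes Reg4, Reg3g and Reg3b. Reg4 had 128, 470 and 114 units in mutant and 1248, 857 and 290 units in control libraries, a log2 difference of -1.83 ± 0.71 (adjusted p = 0.589 in limma). The antimicrobial lectins Reg3g and Reg3b, which enterocytes also make, stood the other way. Reg3g had 4090, 3520 and 10680 units in mutant and 1413, 503 and 3545 units in control libraries, and the log2 difference was 1.98 ± 0.77 (adjusted p = 0.589 in limma). Reg3b had 9795, 6304 and 18310 units in mutant and 2251, 833 and 9968 units in control libraries, a log2 difference of 1.97 ± 0.91 (adjusted p = 0.589 in limma).

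The other 3 were Pnliprp2, Ern1 and Tcf7l2. Pnliprp2 had 116, 288 and 97.9 units in mutant and 2191, 745 and 164 units in control libraries, a log2 difference of -2.11 ± 0.91. Ern1, which encodes a sensor of unfolded protein in the endoplasmic reticulum, had 13.5, 15.9 and 6.69 units in mutant and 23.7, 16.2 and 19.1 units in control libraries, and every mutant value was below every control value. Tcf7l2, the main TCF factor of the gut epithelium, had 13.8, 8.24 and 28.9 units in mutant and 9.58, 6.39 and 7.75 units in control libraries. None of the 3 passed (adjusted p = 0.589 each in limma). Transcription factors of the secretory lineage, named here after their values were seen, did not pass either. Atoh1, which commits cells to that lineage, had 13.3, 19.8 and 15.2 units in mutant and 22.6, 14.4 and 12.4 units in control libraries. Sox9, which Paneth cells require, had 11.4, 13.2 and 13.5 units in mutant and 16.5, 12.7 and 6.89 units in control libraries. The log2 differences were -0.01 ± 0.25 for Atoh1, 0.15 ± 0.29 for Sox9, 0.05 ± 0.27 for Gfi1 and -0.08 ± 0.38 for Spdef (adjusted p from 0.851 to 0.994 in limma). Bhlha15, which supports the secretory machinery, had 11.2, 16.8 and 6.65 units in mutant and 38.7, 13.8 and 13.5 units in control libraries, a log2 difference of -0.79 ± 0.47 (adjusted p = 0.591 in limma). Like most Defa rows it was highest in control replicate 1 and lowest in mutant replicate 3. Wnt3, a WNT ligand that Paneth cells supply to stem cells, had 4.85, 8.02 and 4.93 units in mutant and 11.3, 5.08 and 3.20 units in control libraries.

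**Figure D5:**
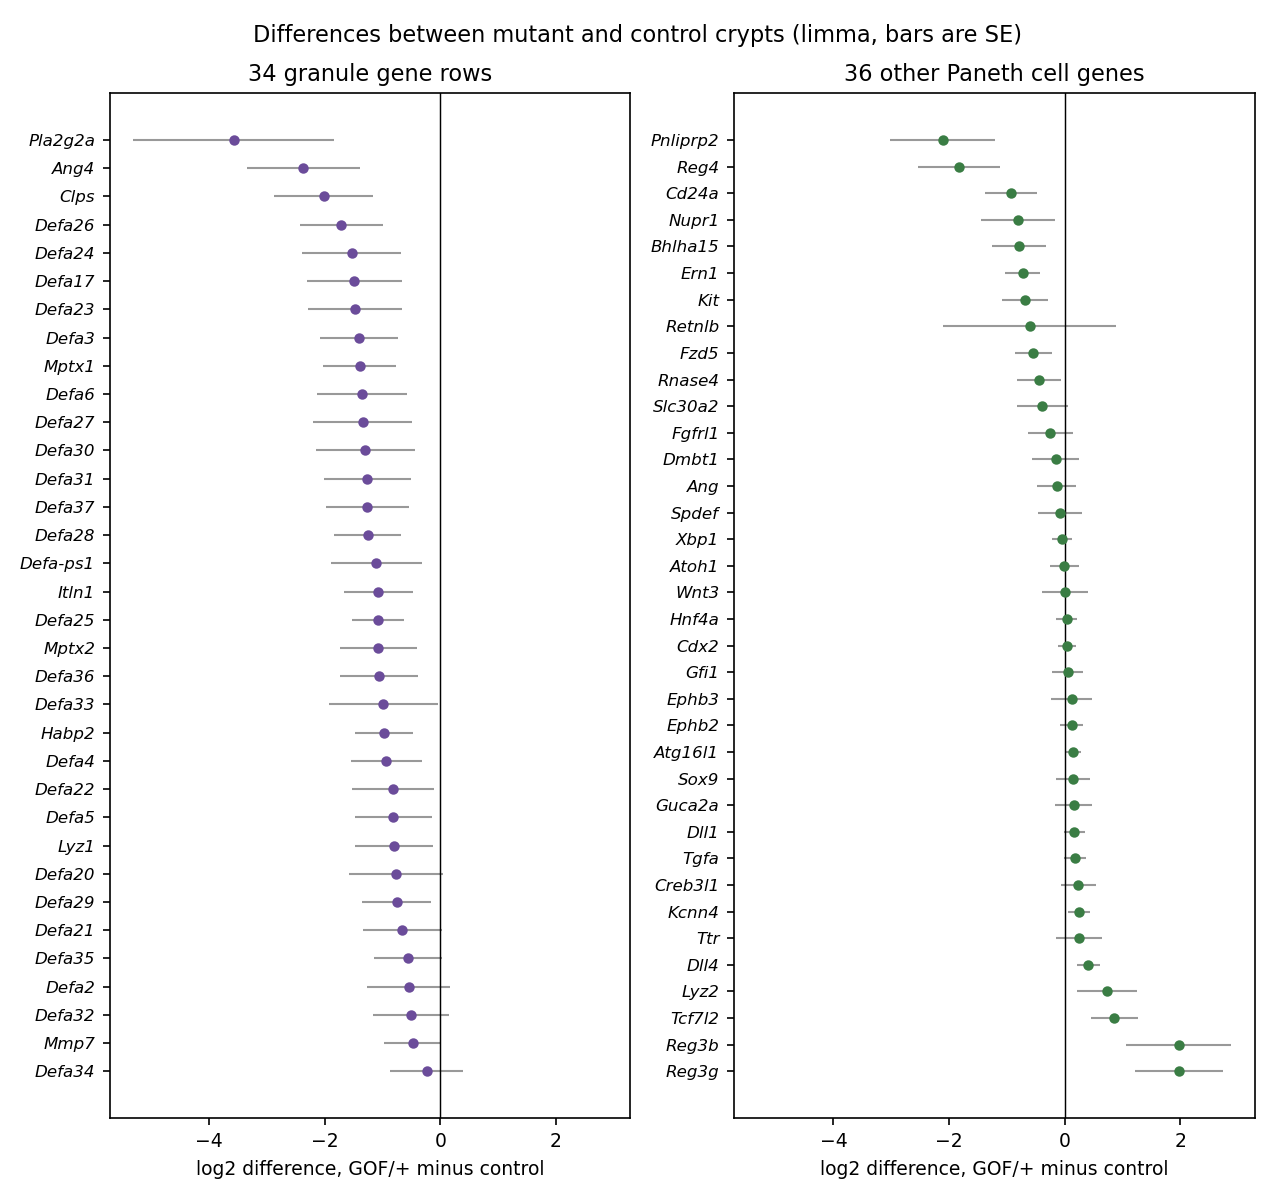
Log2 difference on the log2(value + 1) scale, mutant minus control (horizontal axis; points with SE from limma), for the 34 granule gene rows on the left and 36 other Paneth cell genes on the right. All 34 granule rows lie below 0, from -0.24 in Defa34 to -3.57 in Pla2g2a, while the other genes split into 18 above and 18 below 0. These other genes include some that are also made outside Paneth cells.

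Markers of other cells also varied between these libraries, and their part in the values above was not tested. All 6 general epithelial markers were tested and higher in mutant libraries by a median log2 of 0.21, with summed levels of 4539 to 5790 units in mutant and 3911 to 4926 in control libraries. Of 8 enterocyte markers 7 were higher, and their sum was 5346 to 22350 units in mutant and 3320 to 9041 in control libraries, lowest in control replicate 1, where the defensins were highest, and highest in mutant replicate 3, where they were lowest. Stem cell markers summed to 158 to 931 units in mutant and 630 to 1452 in control libraries, with 6 of 7 lower. The largest part of this sum was Olfm4, at 533, 731 and 54.6 units in mutant and 800, 1195 and 472 in control libraries. Goblet cell markers summed to 11390 to 13600 units in mutant and 11820 to 16680 in control libraries, with 6 of 8 higher. Spink4, 1 of the 2 that were lower, had 10070 of the 16680 units in control replicate 1. The goblet sum therefore leans on that gene and need not follow the count. Stromal markers were low, with sums of 13.3 to 28.8 units in mutant and 0.437 to 1.62 in control libraries, and all 5 tested were higher. The defining stromal marker Pdgfra was at 0.149, 0.103 and 0.204 units in mutant libraries and at 0 in all 3 control libraries. These values are near the floor, and the gene was too low to be tested. Immune markers summed to 347 to 1565 units in mutant and 461 to 1155 in control libraries, with 5 of 6 tested higher. Nearly all of this sum was Cd74, at 748, 337 and 1510 units in mutant and 734, 452 and 1129 in control libraries. Its log2 difference was 0.008, so the sum is not a measure of immune cells as a set. Markers of the ileum summed to 208, 428 and 1164 units in mutant and 191, 38.7 and 108 units in control libraries, with Fabp6, an ileal bile acid-binding protein gene, at 5.74 units in control replicate 2 and 1101 in mutant replicate 3. Enteroendocrine markers summed to 305 to 461 units in mutant and 208 to 271 in control libraries, with 6 of 7 higher. Tuft cell markers summed to 24.2 to 37.8 units in mutant and 32.5 to 86.4 in control libraries, with all 5 tested lower. Markers of the proximal small intestine summed to 37.6 to 50.9 units in mutant and 40.2 to 51.5 in control libraries. None of these markers passed the test over all genes.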

How the data were processed

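Per the labels' protocols, poly-A RNA of mouse crypt epithelium was turned into randomly primed cDNA and sequenced by Illumina. Groups came from sample titles. Columns were assigned through group name and replicate number, where those naming a heterozygous exon change were taken as the only group other than the controls. The deposited signal is the authors' normalized value of each gene; the submitters' processing notes name kallisto 0.46.1, DESeq2 1.40.1 and mm9, with no role or order, and the step that made the values is not given in the sources used here. Of values above 0, 0% are whole. Among 365 low genes seen in 1 library only, log2 values fell with log2 length at a slope of -0.875, so units are roughly per length. Absolute depth is unknown, so no counting interval is given. Of all rows 24 carry calendar dates in place of symbols, and 0 value columns lacked a sample.

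The fit used limma 3.58.1 (R 4.3.3) on log2(value + 1) of all genes averaging 1 unit or more, with group as the only term and a trended prior variance, and p-values were adjusted by Benjamini-Hochberg at 0.05 over all 11837 genes. Log2 differences understate changes of low genes. The script was tested on simulated data. Members, lists and tests were chosen with earlier results of these data known. Genes named were the 9 granule genes, the 8 highest Defa rows, the 2 most and 2 least negative Defa rows averaging 5 units or more, and the 6 other Paneth cell genes with the smallest p; other genes were named after their values were seen. Alternatives were other scalings, filters and pseudocounts, array weights, a replicate block, sex as a covariate and leaving out each library. Scaling by the median of ratios hardly changed the values, as its factors were 0.9874 to 1.008, so it is a weak check. Joining near-identical rows and adding defensin rows under older symbols were chosen after seeing the data. Promoters came from RefSeq (GRCm38.p6) and transcripts from GENCODE vM21, aligned with BLAST+ 2.17.0. Python 3.11.15 with NumPy 2.4.6, pandas 2.3.3 and matplotlib 3.10.9 made the tables and figures.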

Additional observations from a re-analysis of the deposited data

How the results depend on the processing

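Under every alternative run, 0 of the tested granule rows passed at an adjusted p under 0.05 in limma; the smallest adjusted p was 0.09998, with array weights, where 27 rows had an unadjusted p under 0.05 and the median log2 difference was -1.78. Their median stayed negative throughout, from -0.63 without control replicate 1 to -1.63 without mutant replicate 2 when a library was left out. Scaling to the library total moved the median of all genes from -0.02 to 0.31, and that of the granule rows to -0.73; Defa34 then turned to 0.12. Of 320 values of the 20 named granule genes under alternatives, 315 kept their direction and 5 turned, the other 4 being Defa34 at 0.025 without mutant replicate 3 and 0.43 without control replicate 1, Mmp7 at 0.050 and Defa32 at 0.023 without control replicate 1. With a library left out, these genes ran from -0.66 to 0.43 (Defa34), -0.80 to 0.050 (Mmp7) and -1.09 to 0.023 (Defa32). The count of all genes past the threshold was 2 in the fit reported, 25 scaled to the library total, 5 scaled to the units outside the granule genes, 1 with a pseudocount of 5, 27 with array weights, 0 with sex as a covariate and 0 to 4 with a library left out. The replicate block gave 0 genes. Same-numbered libraries had correlations of deviations of -0.29, 0.33 and 0.33 for replicates 1, 2 and 3. Mutant replicates 2 and 3 correlated best with the control of their own number, and mutant replicate 1 with control replicate 2. The labels do not say that the numbers pair the libraries, so they were not taken to. The mutant-minus-control difference in the Defa share was -14.6 percentage points, -36.9 points when set against the units outside all 36 genes, and -7.86 to -22.4 with a library left out. Without the 3 highest rows it was -4.37, and with defensin rows under older symbols, added after seeing the data, -15.8. Rows whose share of the Defa sum did not overlap between groups numbered 7 of 25, 4 of 14 with near-identical rows joined, and 7 to 15 with a library left out, where 15 is without control replicate 3 and the others are 7 to 9; fewer libraries make such gaps easier to meet. Joining rows by protein identity was not run, for want of protein sequences here, and transcript identity, chosen after seeing the data, took its place. The causes of these shifts were not tested. Low rows such as Defa25 and Defa4 are limited by depth, which is unknown, and paralog rows by shared sequence.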

Other observations

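Alpha-defensin rows that the table lists under older symbols, matched through RefSeq synonyms, numbered 5. Gm7849, listed by RefSeq as Defa42, had 6071, 17124 and 3808 units in mutant and 23313, 13120 and 12894 units in control libraries. Gm14851, listed as Defa38, had 2989, 9601 and 2465 units in mutant and 17856, 10056 and 5573 units in control libraries. Gm7861, listed as Defa43, had 2501, 5420 and 1166 units in mutant and 5459, 3496 and 3944 units in control libraries, so control replicate 1 and mutant replicate 2 were nearly level in it. Gm15292, listed as Defa40, had 242, 581 and 126 units in mutant and 2021, 1037 and 382 units in control libraries. Gm15293, listed as Defa41, had 12.3, 25.4 and 16.6 units in mutant and 30.2, 25.4 and 11.5 units in control libraries, and was lowest in control replicate 3. With these rows added, the summed share was 18.7, 40.9 and 12.2% of units in mutant and 53.8, 37.6 and 27.8% in control libraries.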
